A study of Homo sapiens with 12 samples.

Results

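The departure from additivity of an ETV6 and an NFKB1 knock-down was described for genes with deposited values in the glioblastoma line U251, an established human cell line. For each gene the log2 interaction was the mean level with both siRNAs, minus the mean with ETV6 siRNA, minus the mean with NFKB1 siRNA, plus the mean with control siRNA. It is 0 when the log2 change with both siRNAs equals the sum of the 2 single changes, which means that the fold changes multiply. All 12 arrays entered the value. A gene was represented by the probe set that names it alone and had the highest mean over the 12 arrays, which gave 10346 genes, and 7760 of them were tested after genes with a low mean were left out. No measured response chose the genes, so the interaction of each was tested.

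Cells were transfected with pools of ON-TARGETplus SMARTpool siRNA (small interfering RNA) with the lipid Dharmafect 2, and total RNA was hybridised to Affymetrix expression arrays, 1 array for each sample. There were 4 groups of 3 arrays. The control siRNA group received an siRNA without a known human target, the ETV6 siRNA group the pool against ETV6, the NFKB1 siRNA group the pool against NFKB1, and the double siRNA group both pools. Each siRNA was used at 50 nM. The labels do not say whether a single knock-down was topped up with control siRNA, so the second target and the total amount of siRNA cannot be told apart between the single and the double groups. Whether replicates were cultured separately is not said either, and p-values therefore cover only the differences seen among these arrays, which could be technical.

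The product of ETV6 is an ETS family factor that represses transcription, and members of the family bind DNA at a GGAA core through the ETS domain. NFKB1 encodes p105, which is processed to p50, a subunit of NF-kB. Dimers of p50 with RELA activate inflammatory and survival genes once the inhibitor NFKBIA is degraded after phosphorylation by the IKK kinases, while dimers of p50 alone lack an activation domain and can repress. NF-kB activity is known in glioblastoma cells, where it drives inflammatory genes.

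The promoters of 3 of the genes on which the results turn held a motif of either factor and are shown. Binding there, or a link of the motif to the interaction, was not tested. The motifs searched on both strands were CCGGAAGT for ETS factors, and GGGACTTTC or GGAATTTCC for NF-kB, and none of them contains another. Of the 2 targeted genes and the 24 named for the highest and lowest interactions, 23 had a promoter in the RefSeq table (GRCh38.p14, 250 bases before to 50 after the start). Of these 23 promoters 3 held a motif. Among all tested genes with a promoter, 10.0% held the ETS motif and 0.745% an NF-kB motif. Each sequence below runs 5′ to 3′ on the strand of the gene, from 100 bases before its start to 20 after, with the motif in capitals. The NF-kB motif of NFKB1 begins 48 bases before the start (chr4:102501259-102501378, plus strand), the ETS motif of SPOPL 66 bases before it (chr2:138501670-138501789, plus strand) and the ETS motif of SLC30A7 2 bases before it (chr1:100895990-100896109, plus strand).
NFKB1: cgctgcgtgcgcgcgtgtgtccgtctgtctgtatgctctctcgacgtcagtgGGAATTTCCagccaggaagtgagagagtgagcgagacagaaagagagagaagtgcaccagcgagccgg
SPOPL: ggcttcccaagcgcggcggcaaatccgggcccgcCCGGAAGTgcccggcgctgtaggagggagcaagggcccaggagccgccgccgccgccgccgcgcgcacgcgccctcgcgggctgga
SLC30A7: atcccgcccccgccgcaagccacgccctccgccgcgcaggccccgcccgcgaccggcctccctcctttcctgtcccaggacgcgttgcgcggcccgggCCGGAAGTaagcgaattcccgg

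The double siRNA arrays stood apart from the other 9 in measures that come from spike-ins and from paired 3′ and 5′ probe sets. The 24 probe sets of the poly-A spike-ins, RNA put in ahead of labelling, had a mean of 7.97 to 8.05 on the log2 scale in the double siRNA arrays and 8.37 to 9.35 in the others. The difference between the 3′ and 5′ probe sets of ACTB, a gauge of RNA integrity and labelling, was 2.05 to 2.16 against 1.52 to 1.91, while that of GAPDH overlapped (0.46 to 0.51 against 0.37 to 0.54). The median of all probe sets was 8.34 to 8.38 against 8.08 to 8.27. Control siRNA replicate 3 had the ACTB difference nearest to the double siRNA arrays. Because these measures move with the double siRNA group, and the interaction rests on that group, they cannot be told apart from the second knock-down for any gene below, and their part in the results was not tested. Counts are therefore also given without control siRNA replicate 3 where it matters.

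**Figure D1:**
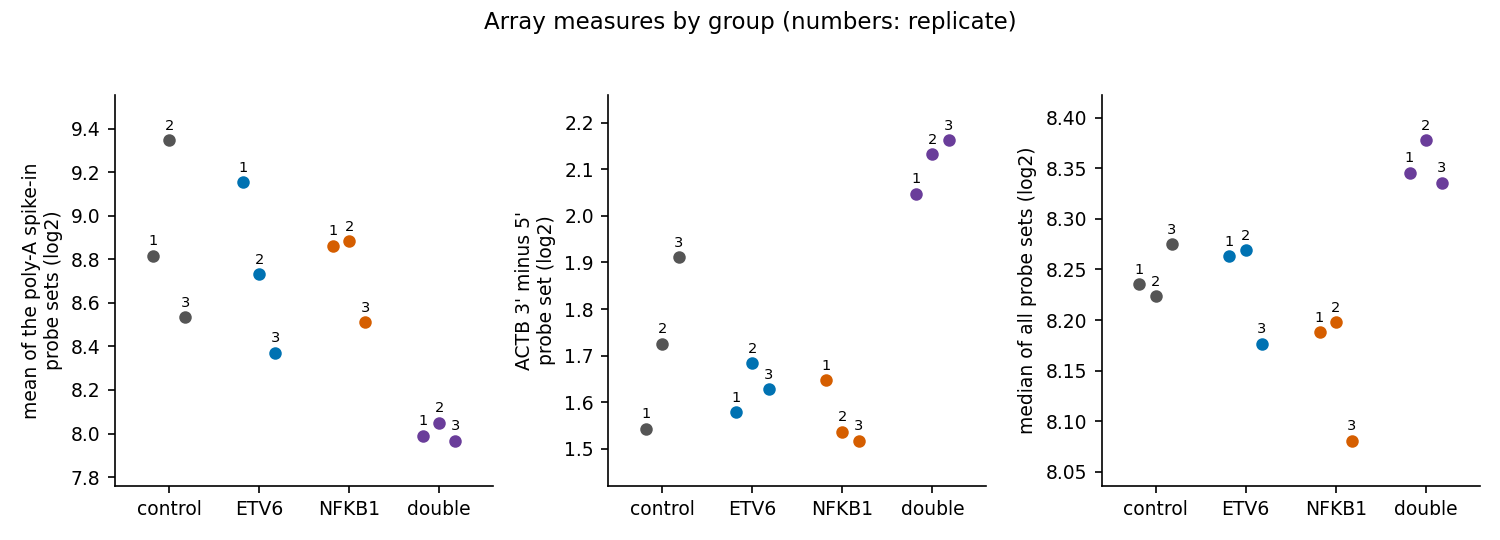
Spike-in level, ACTB 3′ minus 5′ difference and median of all probe sets, each on the log2 scale, for the 12 arrays by group, with replicate numbers above the points. The 3 double siRNA arrays lie below all others in the poly-A spike-ins (7.97 to 8.05) and above all others in the ACTB difference (2.05 to 2.16) and the median (8.34 to 8.38).

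The targeted genes were examined first. ETV6 had log2 levels of 9.02, 9.02 and 8.58 in the control siRNA arrays, 6.80, 6.78 and 6.60 with ETV6 siRNA, 8.73, 8.72 and 8.64 with NFKB1 siRNA and 7.44, 7.36 and 7.29 with both. The groups with the ETV6 pool lay below all others, and the double siRNA arrays lay above the ETV6 siRNA arrays without overlap. ETV6 siRNA alone left 22.6% of the control level and both siRNAs left 35.1%, with a mean level above the 6.55 that additivity gives. The interaction was 0.81 ± 0.15 (SE; limma adjusted p = 0.000358), which places the double siRNA level above the sum. It was smaller, at 0.38, after each array was centred within bins of gene span, an alternative chosen after seeing the data (limma adjusted p = 0.0378). On unlogged values divided by the gene mean it was 0.40 of that mean (limma adjusted p = 0.0167). That unit cannot be compared in size with a log2 value. The interaction was still past the threshold in both. The dimmer of the 2 ETV6 probe sets gave 0.30 and was not called (adjusted p = 0.0714).

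NFKB1 had levels of 7.22, 7.24 and 7.49 in the control siRNA arrays, 7.85, 7.74 and 7.85 with ETV6 siRNA, 6.95, 6.75 and 6.05 with NFKB1 siRNA and 6.50, 6.58 and 6.57 with both. It was above the control arrays in all 3 ETV6 siRNA arrays, and the NFKB1 siRNA and double siRNA arrays overlapped, with NFKB1 siRNA replicate 3 lowest. The level was 141% of control with ETV6 siRNA, 60.3% with NFKB1 siRNA and 58.8% with both, where additivity gives 85.2%. The mean of this probe set was under the filter of log2 7.54, and it was tested only because NFKB1 was targeted. The 5th percentile of all probe sets was 6.15 to 6.16 in the double siRNA arrays and 5.46 to 6.04 in the others. With levels this near the floor, the percentages may not give the depth of the NFKB1 knock-down. The NFKB1 interaction of -0.53 ± 0.25 was not called (limma adjusted p = 0.061, 95% interval -1.08 to 0.01). Without NFKB1 siRNA replicate 3 it was -0.80 (adjusted p = 0.000117), and without control siRNA replicate 3 it was -0.62 (adjusted p = 0.0365), both past the threshold.

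Most genes departed from the sum. At an adjusted p under 0.05, 6698 of the 7760 genes were called (86.3%), with 2834 higher than the sum (36.5%) and 3864 lower (49.8%). The size was uneven between the directions. Of the genes higher than the sum 1265 were so by over 2-fold and 267 by over 4-fold, while of those lower 95 were so by over 2-fold and 1, HMOX1, by over 4-fold. The median interaction of all genes was -0.18, with quartiles of -0.62 and 0.60 and a range of -2.22 to 3.89, beside a median standard error of 0.10. Taking 1 array from each group in all 81 ways gave an interaction of the same sign every time for 35.2% of genes on the high side and 47.5% on the low side, and 6366 of the called genes were among them.

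The single changes were much rarer than the departures. Against the control arrays 827 genes (10.7%) passed the same threshold with ETV6 siRNA, 3148 (40.6%) with NFKB1 siRNA and 6274 (80.9%) with both, and these 3 comparisons share the control arrays. Of the called genes 3415 passed with both siRNAs and with neither alone. Both single knock-downs passed in one direction and the double in the other for 174 genes that were higher with both siRNAs and 77 that were lower. Without control siRNA replicate 3, 6625 genes were called, 2812 higher and 3813 lower. Control siRNA replicate 3 lay above the other 2 control arrays for 79.1% of the genes higher than the sum and below them for 76.1% of those lower, against 37.7% and 39.5% of the genes not called. The control mean is added in the interaction, so a high or low control array itself moves a gene towards that call. This contrast is therefore partly built in.

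**Figure D2:**
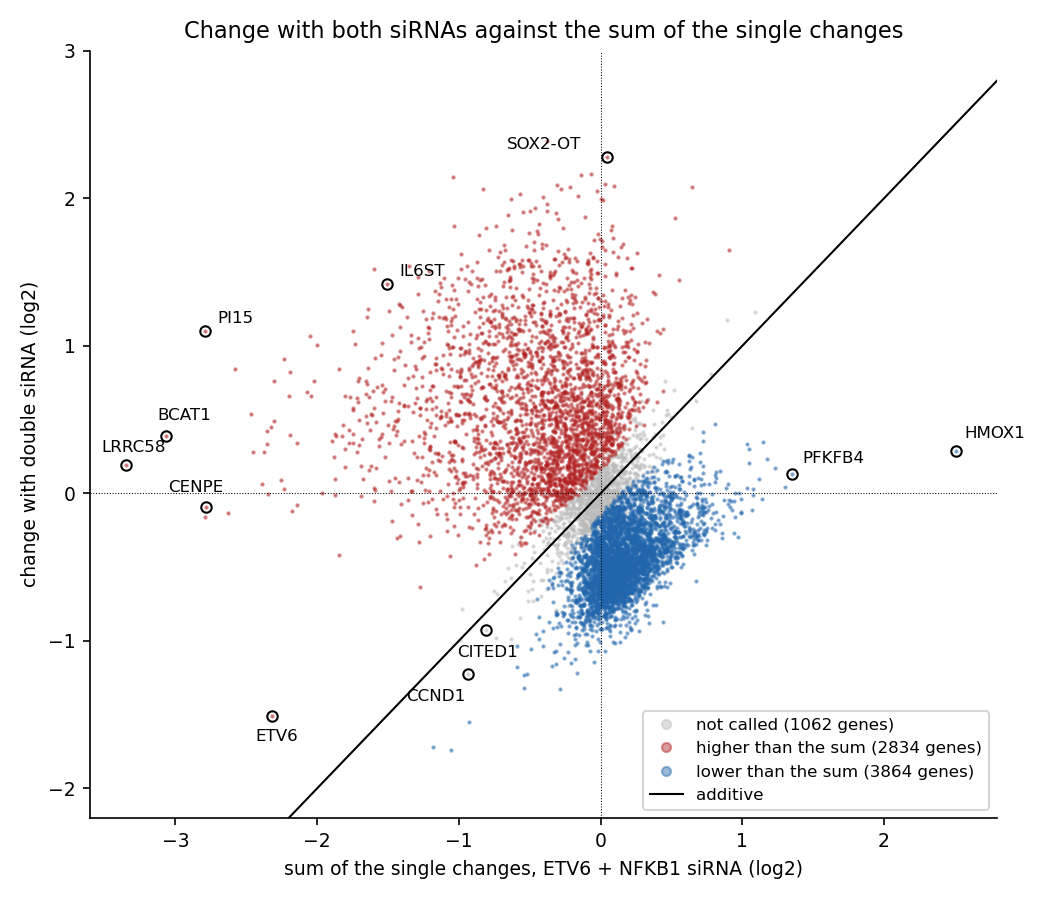
Log2 change with double siRNA (vertical axis) against the sum of the log2 changes with ETV6 siRNA and NFKB1 siRNA (horizontal axis), 1 point for each of the 7760 genes. Points on the line are additive, the 2834 genes called higher lie above it, the 3864 called lower lie below it, and HMOX1 (double change 0.29) and LRRC58 (double change 0.19) mark the far right and far left.

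The largest interactions belonged to genes whose means were below control with each siRNA alone and above control with both. PI15, a secreted peptidase inhibitor, had levels of 9.53, 9.30 and 10.75 in control arrays, 8.58, 9.05 and 8.38 with ETV6 siRNA, 8.47, 8.31 and 8.0 with NFKB1 siRNA and 10.98, 10.82 and 11.07 with both. The double siRNA arrays were the highest 3, and both single groups lay below every control array. Its interaction of 3.89 ± 0.44 (limma adjusted p = 1.29e-05), or 14.8-fold, was 3.44 without control siRNA replicate 3, which stood 1 log2 unit or more above the other 2. The second PI15 probe set gave 0.27.

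BCAT1, the cytosolic aminotransferase that starts the breakdown of branched-chain amino acids, had levels of 9.51, 9.53 and 10.11 in control arrays. With ETV6 siRNA they were 8.67, 9.05 and 8.78, with NFKB1 siRNA 7.64, 7.57 and 7.39 and with both 10.07, 10.20 and 10.05. The NFKB1 siRNA arrays were lowest by a wide gap, and the double siRNA arrays overlapped control siRNA replicate 3 and lay above the other 2. The interaction was 3.46 ± 0.21 (limma adjusted p = 7.16e-07), the same as on the next brightest BCAT1 probe set, while the 2 dimmest, both under the filter, gave 0.18 and -0.24.

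LRRC58, a leucine-rich repeat protein, had the lowest sum of single changes of the 7760 genes. Its levels were 9.29, 9.22 and 9.95 in control arrays, 7.86, 8.11 and 7.66 with ETV6 siRNA, 7.91, 7.74 and 7.59 with NFKB1 siRNA and 9.67, 9.68 and 9.68 with both, where additivity gives 6.14, and the double siRNA arrays lay among the control arrays (interaction 3.54 ± 0.24, limma adjusted p = 1.32e-06). SPOPL, a substrate adaptor of cullin ubiquitin ligases whose promoter with an ETS motif is shown above, had 8.67, 8.59 and 9.63 in control arrays, 7.67, 7.94 and 7.53 with ETV6 siRNA, 7.75, 7.78 and 7.38 with NFKB1 siRNA and 9.82, 9.73 and 9.88 with both. Its double siRNA arrays were above all control arrays and its single groups below them (interaction 3.42 ± 0.32, limma adjusted p = 5.57e-06).

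IL6ST, the gp130 receptor chain through which interleukin 6 family cytokines signal, was the member of the cytokine list that departed most. It had 10.30, 10.13 and 10.89 in control arrays, 9.67, 10.17 and 9.78 with ETV6 siRNA, 9.57, 9.42 and 9.51 with NFKB1 siRNA and 11.92, 11.77 and 11.89 with both. The double siRNA arrays were about 2.68-fold above the control mean and the interaction was 2.93 ± 0.24 (limma adjusted p = 2.88e-06), with 2.52 to 2.93 over its 4 probe sets.

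The other 7 of the 12 highest had interactions of 3.00 to 3.14. They were LARP4 (3.14), a poly(A)-binding RNA protein; DMXL1 (3.12), a regulator of the vacuolar proton pump; XRN1 (3.11), the cytoplasmic exoribonuclease that degrades decapped mRNA; PRKD3 (3.07), a protein kinase D; SLC30A7 (3.02), a zinc transporter of the Golgi; PANK3 (3.01), a pantothenate kinase of coenzyme A synthesis; and HIPK3 (3.00), a nuclear serine/threonine kinase. For all 12 the double siRNA mean was above the control mean, control siRNA replicate 3 was the highest control array, and the interaction without it was 2.68 (HIPK3) to 3.44 (PI15).

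HMOX1, heme oxygenase, which breaks down heme and is a standard target of the NRF2 stress response, lay furthest below the sum. Its levels were 10.01, 9.99 and 9.90 in control arrays, 11.39, 11.29 and 11.29 with ETV6 siRNA, 11.13, 11.11 and 11.10 with NFKB1 siRNA and 10.32, 10.27 and 10.17 with both. Each single knock-down raised it in every array, by 2.57-fold and 2.22-fold, and with both siRNAs it was 1.22-fold above control, without overlap between any 2 groups. The interaction was -2.22 ± 0.07 (limma adjusted p = 2.71e-08), or 4.65-fold below the sum, and -2.19 without control siRNA replicate 3.

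The hypoxia-induced genes PFKFB4 and HILPDA were highest with NFKB1 siRNA alone and near control with both. PFKFB4, which sets the level of an activator of glycolysis, had 10.61, 10.74 and 10.71 in control arrays, 11.08, 10.98 and 11.01 with ETV6 siRNA, 11.64, 11.74 and 11.74 with NFKB1 siRNA and 10.84, 10.87 and 10.75 with both. The NFKB1 siRNA arrays were highest and the double siRNA arrays returned to just above the control arrays (interaction -1.22 ± 0.08, limma adjusted p = 9.17e-07). HILPDA, a lipid droplet protein, had 10.48, 10.59 and 10.49 with NFKB1 siRNA against 9.56, 9.70 and 9.59 in control arrays and 9.52, 9.59 and 9.40 with both, where the double and control arrays overlapped (interaction -1.18 ± 0.09, limma adjusted p = 1.46e-06).

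The remaining 9 of the 12 lowest lay between -1.31 and -1.16. SLC7A5 (-1.16), the large neutral amino acid transporter, and ORAI3 (-1.17), a calcium channel subunit, had single changes above 0 and double siRNA arrays below every control array. PKM (-1.21), pyruvate kinase, UBA1 (-1.22), the main ubiquitin-activating enzyme, HECTD3 (-1.31), a ubiquitin ligase, and RPUSD3 (-1.17), a pseudouridine synthase, had single means above the control mean and double siRNA arrays below every other array. Their control arrays were wide, as in PKM with 12.07, 11.40 and 11.21, and without control siRNA replicate 3 the 4 interactions were -1.06 to -1.02. TMEM158 (-1.27), a membrane protein, PSKH1 (-1.26), a serine kinase, and the noncoding BRD3OS (-1.21) completed the set. BRD3OS lies opposite BRD3, and a probe set cannot be checked for strand here.

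**Figure D3:**
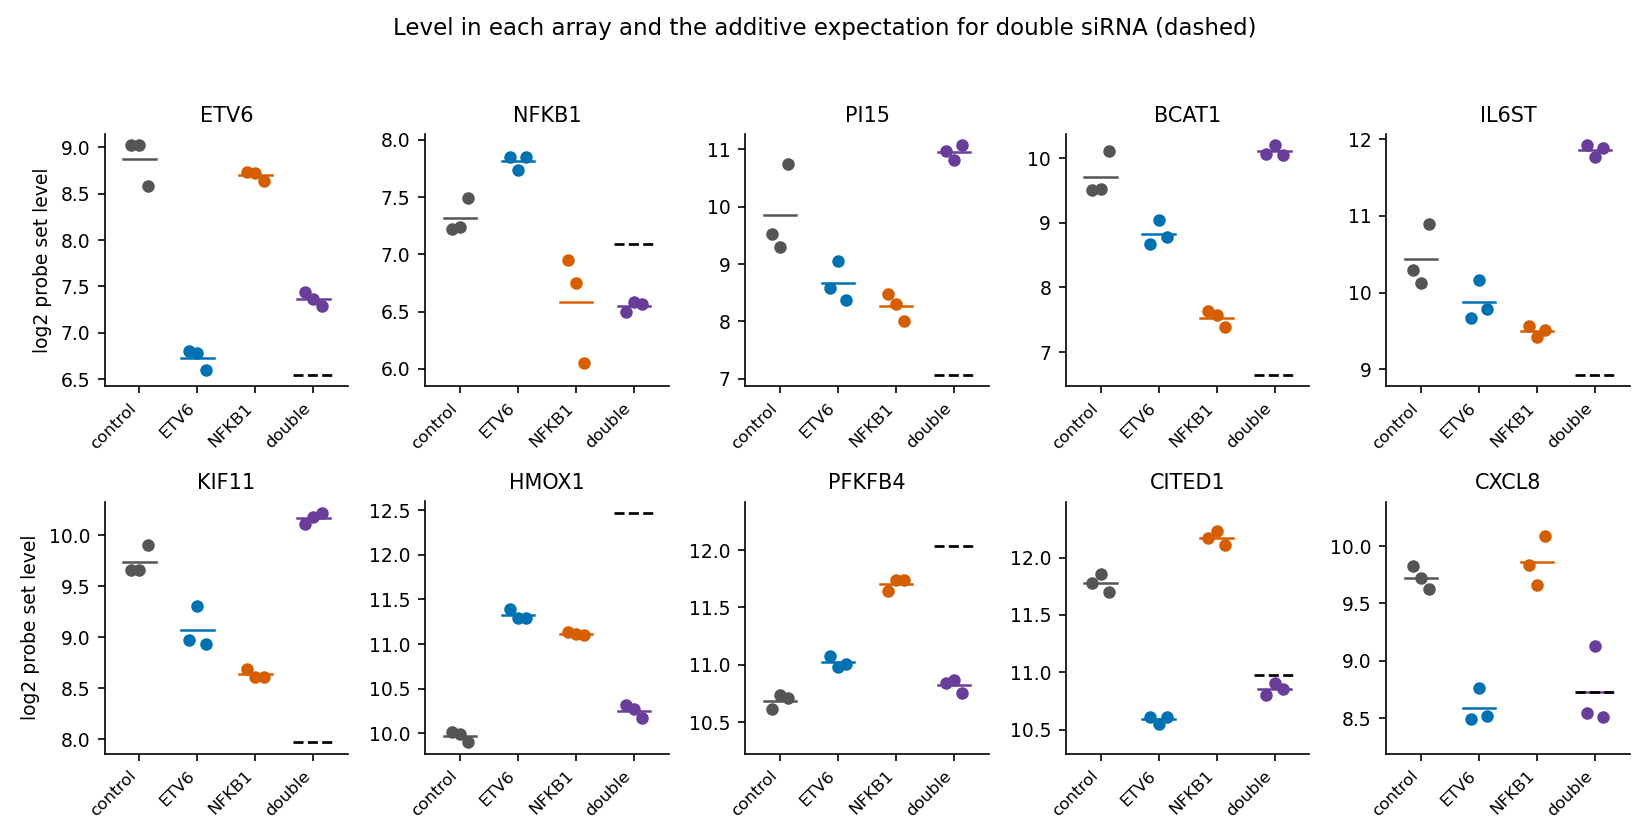
Log2 probe set level of 10 genes in each array (points, 3 for each group, with a line at the group mean) and the level that additivity gives for double siRNA (dashed). PI15, BCAT1, IL6ST and KIF11 lie far above the dashed line, HMOX1 and PFKFB4 far below it, and CITED1 and CXCL8 on or next to it.

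Called genes were sorted into 4 forms by where the mean double change lay against the sum. The sorting used the sign of group means without a test, and for 917 called genes the double change did not pass the threshold. For such genes the side of control is not settled. For 3655 called genes (54.6%) the double change was on the other side of the control level from the sum, as in LRRC58, SPOPL, PI15 and BCAT1, and these split evenly into 1853 higher and 1802 lower. For 2373 (35.4%) the sum was near 0 (within 1.1-fold), and 1759 of these were lower and 614 higher. A sum near 0 can also come from opposite single changes, as in CCL2 with 0.65 for ETV6 siRNA and -0.54 for NFKB1 siRNA. For 378 (5.64%) the double change had the direction of the sum and fell short of it, and for 292 (4.36%) it went beyond the sum in the same direction. The last count was the least settled, since it was 1038 without control siRNA replicate 3 and 190 without control siRNA replicate 1. The count on the other side of control moved too, to 2529 without control siRNA replicate 3 and 4360 without control siRNA replicate 1.

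Genes near 0 in the sum that were far higher with both siRNAs included SOX2-OT, the noncoding host of SOX2. It had 9.10, 9.03 and 9.85 in control arrays, 9.32, 9.43 and 9.11 with ETV6 siRNA, 9.56, 9.66 and 9.02 with NFKB1 siRNA and 11.60, 11.54 and 11.69 with both, where no double siRNA array overlapped any other (interaction 2.23 ± 0.29, limma adjusted p = 3.3e-05). TIA1 (2.23), an RNA-binding protein of stress granules, KDM7A (2.07), a histone demethylase, and DCLK1 (2.07), a microtubule-associated kinase, showed the same with double siRNA arrays above all others. The second DCLK1 probe set gave 0.13. Genes beyond the sum were led by SLC25A36 (1.53), a mitochondrial pyrimidine nucleotide carrier, CTDSPL2 (1.53), a phosphatase, MIR100HG (1.43), the host transcript of a miRNA cluster, and GLDN (1.41), gliomedin. GLDN had 9.69, 9.91 and 9.78 in control arrays, 10.14, 10.07 and 9.99 with ETV6 siRNA, 9.73, 9.74 and 9.67 with NFKB1 siRNA and 11.43, 11.29 and 11.46 with both, but its dimmer probe set lay below the sum at -0.43.

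Genes short of the sum were led by CENPE (2.70), the kinetochore motor, HELLS (2.63), a chromatin remodeller needed for DNA methylation, NIN (2.49), ninein of the centrosome, and AKAP9 (2.34), a scaffold of the centrosome and Golgi, beside HMOX1. CENPE had 8.35, 8.12 and 8.64 in control arrays, 7.21, 7.28 and 6.65 with ETV6 siRNA, 6.98, 7.01 and 6.74 with NFKB1 siRNA and 8.26, 8.42 and 8.17 with both. Both single groups were low without overlap with control, and the double siRNA arrays lay among the control arrays.

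A small group came close to additivity while changing with both siRNAs. Among the genes not called, 29 had a double change of over 1.5-fold, 21 lower and 8 higher, and for 18 of them the 95% interval of the interaction stayed within 1.5-fold either way. The genes named from this group were chosen after their values were seen. CITED1, a transcriptional coregulator, had 11.78, 11.86 and 11.70 in control arrays, 10.61, 10.55 and 10.61 with ETV6 siRNA, 12.17, 12.23 and 12.11 with NFKB1 siRNA and 10.80, 10.91 and 10.85 with both, which followed the single changes of -1.19 and 0.38 (interaction -0.12, 95% interval -0.29 to 0.05). CXCL8, the neutrophil chemokine interleukin 8, had 9.83, 9.72 and 9.63 in control arrays, 8.49, 8.76 and 8.52 with ETV6 siRNA, 9.84, 9.66 and 10.09 with NFKB1 siRNA and 8.54, 9.13 and 8.51 with both. Its ETV6 siRNA and double siRNA arrays overlapped and lay below all others (interaction -0.01, 95% interval -0.49 to 0.48).

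CCND1, cyclin D1, was low with either siRNA and lowest with both, at 9.14, 9.19 and 9.02 in control arrays, 8.48, 8.49 and 8.54 with ETV6 siRNA, 8.67, 8.94 and 8.77 with NFKB1 siRNA and 7.78, 8.17 and 7.72 with both. The double change of -1.22 compared with a sum of -0.93 (95% interval of the interaction -0.62 to 0.04), but the other CCND1 probe set was called lower at -0.50 (limma adjusted p = 0.00807 over every probe set). CCN2, a matrix-associated growth factor, and COL4A1, a basement membrane collagen, had log2 changes of -0.59 and -0.60 with both siRNAs, with interactions of -0.16 and -0.12. The second COL4A1 probe set was called lower, at -0.44 (limma adjusted p = 0.0126), so closeness to additivity of CCND1 and COL4A1 rests on the probe set. IL6, the cytokine interleukin 6, was higher by 0.70 against single changes of 0.14 and 0.37. A p that misses the threshold does not show that these genes were additive, and centring each array within bins of gene span moved CITED1 to 0.38 (adjusted p = 0.00026) and CXCL8 to 0.53 (adjusted p = 0.0498).

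Functions were then read through 38 gene lists with at least 3 tested members, each set beside the 36.5% of all genes that were higher than the sum, the 49.8% that were lower and the median of -0.18. Medians depend on the scaling, since the median of all genes was -0.39 after each array was shifted to the same median, -0.31 after quantile normalization and -0.02 after centring within bins of gene span. Where the larger share of a list changed direction under one of these, or without control siRNA replicate 3, this is said beside it.

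**Figure D4:**
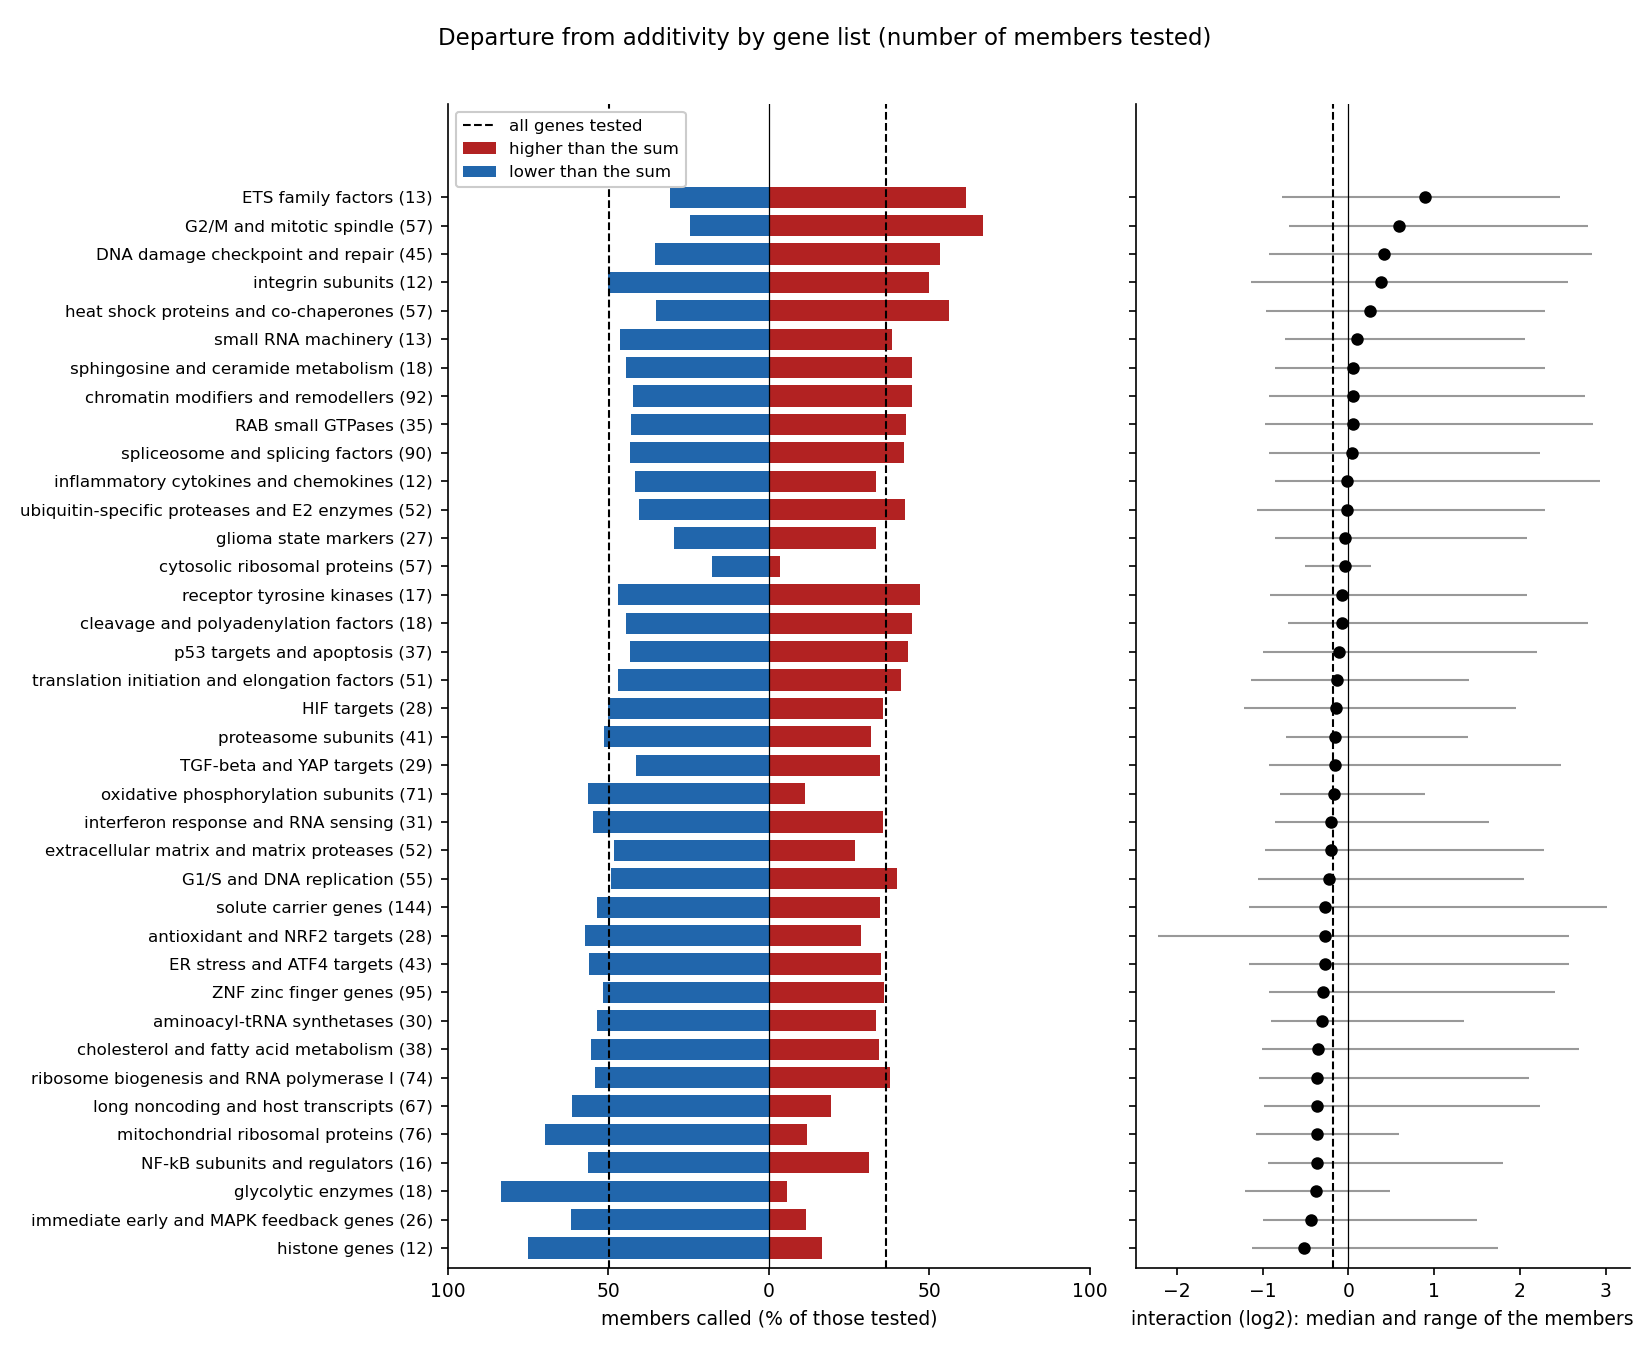
Left, percent of the tested members of each list called higher (to the right of 0) or lower (to the left) than the sum, with dashed lines at 36.5% and 49.8% for all genes. Right, median (point) and range (line) of the interaction on the log2 scale, with a dashed line at -0.18 for all genes; ETS factors and G2/M genes stand at the top, and histone genes at the bottom.

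Among ETS factors, the family of ETV6, 8 of 13 tested members were higher than the sum and 4 lower, with a median of 0.89. GABPA, the DNA-binding subunit of GABP, had 7.33, 7.20 and 8.19 in control arrays, 7.31, 7.61 and 6.89 with ETV6 siRNA, 7.03, 6.93 and 6.51 with NFKB1 siRNA and 8.98, 9.02 and 8.96 with both, and the double siRNA arrays were clear of all others (interaction 2.47 ± 0.35, limma adjusted p = 5.01e-05). ELK4 (2.22) and ELK3 (1.56), ternary complex factors that work with serum response factor, and ELF1 (2.13) and ETS1 (0.89), activators, were also higher, as were ELF2 (0.97), the repressor ETV3 (0.89) and FLI1 (0.46). The repressor ERF (-0.76), ELF4 (-0.77), ELK1 (-0.65) and ETV5 (-0.66) were lower. Other ETV5 probe sets gave -0.28, which was not called, and -0.33, under the filter. ETS2 was not called (0.10), although its other probe set was called lower at -0.32. FLI1 lost its call after the median shift and after quantile normalization, at 0.25 in both, and was 0.04 after centring by gene span.

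NF-kB subunits and regulators departed in both directions. The activating subunit RELA had 9.56, 9.19 and 9.17 in control arrays, 9.35, 9.30 and 9.22 with ETV6 siRNA, 9.5, 9.55 and 9.37 with NFKB1 siRNA and 8.56, 8.66 and 8.71 with both, where the double siRNA arrays were below all others (interaction -0.82 ± 0.14, limma adjusted p = 0.000155). The inhibitors NFKBIA (-0.64) and NFKBIE (-0.89), the kinases IKBKE (-0.64) and MAP3K14 (-0.80), the IKK scaffold IKBKG (-0.67) and the A20-binding proteins TNIP1 (-0.94) and TNIP2 (-0.54) were lower too. TRAF6, an adaptor of receptor signalling, was lower at -0.20, and its dimmer probe set, under the filter, gave 1.3. Members higher than the sum were the kinases CHUK (1.64) and TBK1 (1.55), the adaptor TANK (1.80), the deubiquitinase CYLD (0.52) and the repressor NKRF (0.38). NKRF lost its call after the median shift (0.17) and after quantile normalization (0.20). The 0.52 of CYLD was its smallest value, since its 3 other probe sets gave 1.58, 1.60 and 1.77, the last under the filter. In all 5 of 16 members were higher and 9 lower, and IKBKB (-0.07) and TRAF3 (-0.19) were not called.

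Of the cytokine and chemokine list, to which target genes of NF-kB belong, 12 of 38 members were tested, with 4 higher, 5 lower and a median of -0.01. VCAM1, an adhesion molecule, had 7.24, 7.30 and 7.82 in control arrays, 7.46, 7.28 and 6.99 with ETV6 siRNA, 7.57, 7.79 and 7.73 with NFKB1 siRNA and 8.83, 8.71 and 8.73 with both, with the double siRNA arrays above all others (interaction 1.27 ± 0.21, limma adjusted p = 0.000146). OSMR, a receptor chain that pairs with IL6ST, was higher (0.56), as was IL18 (0.24). CSF1 (-0.85), the macrophage growth factor, the TNF receptor TNFRSF1A (-0.73), the urokinase PLAU (-0.51), its receptor PLAUR (-0.65) and the chemokine CCL2 (-0.35) were lower. CXCL8, IL6 and IL6R (-0.02) were not called. IL18 and CCL2 rested close to the threshold and lost their calls under several alternatives. With arrays centred by gene span the list had 5 higher and 3 lower.

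Genes of the interferon response and RNA sensing followed the background, with 11 of 31 higher, 17 lower and a median of -0.20. IFI44 (1.28), IFI16 (1.19), a DNA sensor, and DTX3L (1.02), a ubiquitin ligase, were higher and IFI35 (-0.85) lower. Immediate early and MAPK feedback genes leaned low, with 16 of 26 lower, 3 higher and a median of -0.43. DUSP1, the MAP kinase phosphatase, had 10.68, 10.56 and 10.46 in control arrays, 11.07, 10.84 and 10.90 with ETV6 siRNA, 11.03, 10.92 and 10.99 with NFKB1 siRNA and 10.59, 10.55 and 10.55 with both. It was above control in every single knock-down array and among the control arrays with both siRNAs (interaction -0.79 ± 0.10, limma adjusted p = 2.26e-05). KLF2 (-0.88) was lower, and KLF6 (1.14), also a Krüppel-like factor, and ERRFI1 (0.70), a feedback inhibitor of EGFR, were higher. TGF-beta and YAP targets had 10 of 29 higher and 12 lower, with the receptor TGFBR1 (2.3), the YAP partner TEAD1 (1.33) and the ligand TGFB2 (1.21) above the sum and the calponin CNN2 (-0.92) below it. The other 2 TGFB2 probe sets gave 0.16 and -0.07. In all 3 lists, centring by gene span turned the balance to higher, at 14 and 10, 9 and 7, and 12 and 10.

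Cell division genes were mostly higher than the sum in the G2/M list. Of the G2/M and mitotic spindle genes 38 of 57 were higher than the sum and 14 lower, with a median of 0.59. For 40 called members of the 57 the mean double change was on the other side of control from the sum. KIF11, the spindle motor, had 9.66, 9.66 and 9.91 in control arrays, 8.97, 9.31 and 8.93 with ETV6 siRNA, 8.69, 8.61 and 8.61 with NFKB1 siRNA and 10.11, 10.18 and 10.22 with both. Both single groups lay below the control arrays and the double siRNA arrays above them (interaction 2.21 ± 0.14, limma adjusted p = 7.41e-07). ANLN (2.25), anillin of the contractile ring, and KIF23 (2.04), the motor of the central spindle, showed the same order of means. CCNA2, cyclin A, was 1.2, with 10.40, 10.42 and 10.50 in the double siRNA arrays against 9.63, 9.55 and 9.71 in the control arrays. The balance of this list held under each scaling and without control siRNA replicate 3 (38 higher and 13 lower), and it was widest after centring by gene span, at 42 and 5. The median change of the list was -0.27 with ETV6 siRNA, -0.22 with NFKB1 siRNA and 0.19 with both. In these bulk samples a different share of dividing cells and a different amount of RNA per cell cannot be told apart in any group.

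G1/S and DNA replication genes had 22 of 55 higher and 27 lower with a median of -0.22, close to all genes, and 24 higher and 18 lower after centring by gene span. POLA1 (1.64), the catalytic subunit of DNA polymerase alpha, RFC3 (1.34), of the clamp loader, RRM1 (1.14), of ribonucleotide reductase, and MCM10 (1.01), an initiation factor, were the members with the smallest adjusted p, all higher. The difference between the 2 cell cycle lists was not tested. DNA damage and repair genes had 24 of 45 higher and 16 lower, with a median of 0.42. BRCA1 had 8.82, 8.57 and 9.11 in control arrays, 8.11, 8.35 and 8.07 with ETV6 siRNA, 7.88, 7.76 and 7.76 with NFKB1 siRNA and 8.96, 9.04 and 9.06 with both, so that the double siRNA arrays overlapped the control arrays above both single groups (interaction 1.88 ± 0.17, limma adjusted p = 3.83e-06). The checkpoint kinase CHEK1 (1.5), REV3L (1.97), of the translesion polymerase, and FANCL (1.03), the Fanconi ubiquitin ligase, were higher too.

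Histone genes were the list with the lowest median, -0.52, with 9 of 12 lower and 2 higher. H2BC12 had 10.40, 10.32 and 10.11 in control arrays, 10.93, 10.94 and 10.86 with ETV6 siRNA, 10.66, 10.61 and 10.62 with NFKB1 siRNA and 10.14, 10.15 and 10.14 with both. Single knock-down arrays were above the control arrays and the double siRNA arrays among them (interaction -1.12 ± 0.09, limma adjusted p = 3.07e-06). H2BC5 (-0.78) and H2AC25 (-0.85) were lower and the variant H2AZ2 (1.74) higher, although 1 of its 4 probe sets was called lower at -0.35. Histone genes are near-identical copies, so probe sets may not tell them apart.

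Glycolytic enzymes were the most one-sided metabolic list, with 15 of 18 lower than the sum, 1 higher and a median of -0.38. GPI, the second enzyme of the pathway, had 11.65, 11.32 and 11.23 in control arrays, 11.75, 11.82 and 11.79 with ETV6 siRNA, 11.97, 12.06 and 11.98 with NFKB1 siRNA and 11.12, 11.28 and 11.40 with both. The NFKB1 siRNA arrays were highest and the double siRNA arrays overlapped the control arrays (interaction -1.12 ± 0.14, limma adjusted p = 2.26e-05). ENO2 (-1.01), an enolase, the glucose transporter SLC2A1 (-0.93) and PFKL (-0.80), a phosphofructokinase, were lower, with the same order of group means. Centring by gene span reduced the split to 9 lower and 7 higher. HIF targets, which include PFKFB4 and HILPDA, had 14 of 28 lower and 10 higher. ANKRD37 (-1.06) was lower, and PLOD2 (1.38), a collagen lysyl hydroxylase, was higher. For 10 called members of the 28 the double change had the direction of the sum and fell short of it.

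Antioxidant and NRF2 targets had 16 of 28 lower and 8 higher, and their 2 extremes were HMOX1 and SLC7A11, the cystine transporter. SLC7A11 had 9.03, 9.08 and 10.06 in control arrays, 8.71, 9.06 and 8.68 with ETV6 siRNA, 8.92, 8.73 and 8.90 with NFKB1 siRNA and 10.86, 10.88 and 10.81 with both, with the double siRNA arrays above all others (interaction 2.57 ± 0.31, limma adjusted p = 1.91e-05). Of its other probe sets 1 gave 3.16 and 1 gave -0.48. PGD (-0.83), of the pentose phosphate pathway, and the transporter ABCC1 (-0.79) were lower. ER stress and ATF4 targets had 24 of 43 lower and 15 higher. TRIB3 (-0.93), a pseudokinase induced by ATF4, and NUPR1 (-0.87), a stress-induced chromatin protein, were lower and EDEM1 (1.00), of ER-associated degradation, higher. Centring by gene span turned both lists to more higher than lower (12 and 6, 20 and 14).

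Cholesterol and fatty acid genes had 21 of 38 lower and 13 higher, from FADS2 (-0.99), a desaturase, to ABCA1 (1.57), the cholesterol exporter, ELOVL6 (1.44), an elongase, and ACADM (1.32), of fatty acid oxidation. Heat shock proteins and co-chaperones ran against the background, with 32 of 57 higher, 20 lower and a median of 0.25. HSP90AA1 had 13.15, 13.35 and 13.35 in control arrays, 13.23, 13.36 and 13.25 with ETV6 siRNA, 12.23, 12.20 and 12.42 with NFKB1 siRNA and 13.38, 13.41 and 13.36 with both. It was low with NFKB1 siRNA alone and the double siRNA arrays lay just above the control arrays (interaction 1.1 ± 0.10, limma adjusted p = 4.93e-06). HSPH1 (1.51), a nucleotide exchange factor, DNAJC13 (1.89) and DNAJC6 (1.1), J-domain proteins of vesicle traffic, were higher. The majority was slim after the median shift, at 26 higher and 25 lower. Solute carriers had 77 of 144 lower and 50 higher; SLC30A6 (1.62), SLC16A9 (1.36), SLC25A40 (1.06) and SLC46A3 (1.03) were higher, beside SLC30A7 and SLC7A5 above, and the second SLC30A6 probe set gave 0.10 and was not called.

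Cytosolic ribosomal proteins were the closest to additivity. Of 57 members 45 were not called, 10 were lower and 2 higher, and the range was -0.50 to 0.26, where 86.3% of all genes were called. RPL18 had 13.57, 13.48 and 13.45 in control arrays, 13.53, 13.43 and 13.44 with ETV6 siRNA, 13.57, 13.59 and 13.55 with NFKB1 siRNA and 13.22, 13.21 and 13.19 with both (interaction -0.33 ± 0.07, limma adjusted p = 0.000708). Only the double siRNA arrays of RPL18 were set apart, with a log2 change of -0.29. RPL36 (-0.34) and RPL39L (-0.50) were lower and RPL7 (0.26) higher. This closeness to 0 depends on the scale. After the median shift 43 were lower and 0 higher, and after centring by gene span 53 were higher and 0 lower, and RPL18 and RPL36 were then 0.19 each.

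Mitochondrial ribosomal proteins leaned low together, with 53 of 76 lower, 9 higher and a median of -0.37. MRPS2 had 9.83, 9.79 and 9.73 in control arrays, 9.92, 9.72 and 9.75 with ETV6 siRNA, 10.03, 10.01 and 9.92 with NFKB1 siRNA and 9.09, 9.22 and 9.04 with both, with the double siRNA arrays below all others (interaction -0.89 ± 0.09, limma adjusted p = 9.81e-06). MRPS34 (-0.67), MRPL11 (-0.66) and MRPL23 (-0.64) were lower. Oxidative phosphorylation subunits had 40 of 71 lower and 8 higher, among them NDUFA3 (-0.71) and NDUFA9 (-0.55) of complex I and ATP5MC2 (-0.54) of the ATP synthase, while cytochrome c, CYCS, was higher (0.89). For 34 called members of each list the sum of the single changes was near 0. Centring by gene span turned both balances, to 24 higher and 19 lower and to 40 and 12.

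Ribosome biogenesis genes had 40 of 74 lower and 28 higher, with the nucleolar helicase DDX21 (2.11) and HEATR1 (1.64), of the small subunit processome, higher and IMP3 (-0.84) and the histone chaperone NPM3 (-0.92) lower. Translation factors had 24 of 51 lower and 21 higher, from EIF4EBP1 (-0.94), an inhibitor of translation initiation, and EIF6 (-0.75) to EIF3A (0.95) and EIF5B (1.27). EIF4EBP1 had 10.47, 10.40 and 10.20 in control arrays, 10.27, 10.19 and 10.14 with ETV6 siRNA, 10.35, 10.34 and 10.24 with NFKB1 siRNA and 9.15, 9.28 and 9.20 with both, a step down in the double siRNA arrays that neither single group showed. Aminoacyl-tRNA synthetases had 16 of 30 lower and 10 higher, with YARS1 (-0.75) and AARS1 (-0.64) below the sum and TARS1 (0.88) and LARS1 (0.80) above it. Proteasome subunits had 21 of 41 lower and 13 higher, with PSMB9 (-0.73), of the immunoproteasome, and PSME1 (-0.59) lower and PSMD14 (0.85) and PSME4 (1.39) higher. After centring by gene span the ribosome biogenesis genes turned to 33 higher and 28 lower, the translation factors to 25 and 12 and the proteasome to 20 and 6, while the synthetases stayed lower.

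RNA processing lists were balanced. Spliceosome genes had 38 of 90 higher and 39 lower, with CDC5L (1.23) and HNRNPA3 (1.01) above the sum and PRPF19 (-0.77) and PRPF6 (-0.72) below it, and 1 CDC5L probe set at -0.22 and not called. Cleavage and polyadenylation factors had 8 of 18 in each direction. NUDT21, the cleavage factor that sets the choice of poly(A) site, had 10.67, 10.78 and 10.94 in control arrays, 9.96, 10.18 and 9.99 with ETV6 siRNA, 9.31, 9.18 and 9.24 with NFKB1 siRNA and 11.34, 11.24 and 11.28 with both, in 4 groups without overlap (interaction 2.8 ± 0.11, limma adjusted p = 7.51e-08). Its other probe sets were called in both directions, at 0.43 and -0.47. PAPOLA (1.48), poly(A) polymerase, and PPP1CB (1.17) were higher and CPSF4 (-0.70) lower. In the small RNA machinery 5 of 13 were higher and 6 lower. DICER1, which cuts precursors of miRNAs, had 8.87, 9.12 and 9.26 in control arrays, 8.52, 8.87 and 8.46 with ETV6 siRNA, 7.73, 7.52 and 7.0 with NFKB1 siRNA and 8.99, 9.02 and 9.01 with both, low with NFKB1 siRNA and back among the control arrays with both (interaction 2.06 ± 0.24, limma adjusted p = 1.49e-05). TNRC6B (1.79) and TNRC6A (1.13), of the silencing complex, were higher and the DICER1 partner TARBP2 (-0.74) lower. The balance of these 3 lists turned. After centring by gene span the spliceosome genes had 52 higher and 18 lower, the polyadenylation factors 9 and 4 and the small RNA machinery 6 in each direction, and without control siRNA replicate 3 they had 37 and 36, 8 and 7, and 6 in each direction. The polyadenylation factors had 7 higher and 10 lower after the median shift and 8 and 9 after quantile normalization.

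Chromatin modifiers had 41 of 92 higher and 39 lower, with PBRM1 (2.3), of the PBAF remodeller, SIRT1 (1.40), a deacetylase, and KMT2C (1.01), a histone methyltransferase, above the sum beside HELLS. The count turned to 43 lower and 33 higher after the median shift, 43 and 36 after quantile normalization and 45 and 32 after centring by gene span. ZNF genes had 49 of 95 lower and 34 higher, with ZNF106 (1.62), ZNF367 (1.42) and ZNF365 (1.06) higher and ZNF362 (-0.89) lower, and centring by gene span turned the balance to 36 higher and 30 lower. Long noncoding and host transcripts leaned low, with 41 of 67 lower and 13 higher. LINC02035 (2.15) and LINC00621 (1.27) were higher, and DANCR (-0.66), a snoRNA host transcript, and CLN8-AS1 (-0.81) were lower. DANCR was -0.13 and not called (adjusted p = 0.11) after centring by gene span, where the list had 22 in each direction.

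At the cell surface, integrin subunits split into 6 higher and 6 lower of 12, and none was left uncalled. ITGB1, the common beta chain, had 12.71, 12.70 and 12.80 in control arrays, 12.05, 12.23 and 12.03 with ETV6 siRNA, 11.71, 11.67 and 11.63 with NFKB1 siRNA and 13.08, 13.01 and 13.11 with both, in 4 groups without overlap, with the double siRNA arrays highest (interaction 2.03 ± 0.09, limma adjusted p = 1.3e-07). ITGB8 (2.56), ITGA6 (1.35), a laminin receptor chain, and ITGA9 (1.08) were higher. The other ITGA9 probe set was called in the opposite direction, at -0.52. Receptor tyrosine kinases had 8 of 17 in each direction, and MET, the receptor of hepatocyte growth factor, had 11.42, 11.61 and 11.96 in control arrays, 10.90, 11.08 and 11.02 with ETV6 siRNA, 10.65, 10.51 and 10.59 with NFKB1 siRNA and 11.97, 11.98 and 12.07 with both. MET was low with each siRNA alone and just above the control arrays with both (interaction 2.08 ± 0.16, limma adjusted p = 1.76e-06). EPHA3 (1.98) and PDGFRA (1.38) were higher and ERBB2 (-0.91) lower, and the second PDGFRA probe set gave -0.09. The receptor list had 7 higher and 9 lower after the median shift and after quantile normalization, and 5 and 9 after centring by gene span.

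Extracellular matrix and matrix protease genes had 25 of 52 lower and 14 higher, and the 4 members with the smallest adjusted p were higher: the sheddases ADAM10 (2.28) and ADAM9 (1.64), versican, VCAN (1.38), and the laminin chain LAMA4 (1.05), whose mean over its 3 probe sets was -0.04. Among glioma state markers 9 of 27 were higher and 8 lower, with 7 higher and 16 lower after the median shift, 9 and 11 after quantile normalization and 9 in each direction without control siRNA replicate 3. U251 carried its defining markers at high levels in the control arrays, with GFAP at 13.59, 13.50 and 13.43, VIM at 14.51, 14.51 and 14.45, SOX2 at 12.71, 12.78 and 12.74 and NES at 11.52, 11.32 and 11.14. GFAP (-0.16), VIM (0.04) and S100B (-0.04) were not called, NES, nestin, was lower (-0.85), and SLC1A3 (0.72), the glial glutamate transporter, GJA1 (1.52), connexin 43 of gap junctions, and the coactivators YAP1 (1.56) and WWTR1 (0.88) were higher. The second GFAP probe set was called lower, at -0.55. Other YAP1 and WWTR1 probe sets lay as low as -0.13 and -0.80. Of 22 markers of other cell types 2 had a probe set that names 1 gene among the 19520 deposited, MBP and SYT1, and both were under the filter. The deposited values held no such probe set for the others, so their absence says nothing about other cells.

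The remaining lists were close to the background. p53 and apoptosis genes had 16 of 37 in each direction, with XIAP (1.95), the caspase inhibitor, PLK2 (1.00) and MCL1 (0.76), a survival protein of the BCL2 family, higher and TP53I3 (-0.81) lower. After the median shift and after quantile normalization 14 were higher and 19 lower, and after centring by gene span 18 and 11. RAB GTPases had 15 of 35 in each direction, with RAB8B (2.85), RAB23 (1.37), RAB31 (1.1) and RAB10 (0.90) higher, while the other RAB10 probe set gave 0.10 and was not called. Other RAB8B probe sets gave 0.33 and 3.59, the last under the filter. This list had 12 higher and 15 lower after the median shift, 14 and 15 after quantile normalization, 18 and 12 after centring by gene span and 15 and 14 without control siRNA replicate 3. Ubiquitin-specific proteases and E2 enzymes had 22 of 52 higher and 21 lower (19 and 28 after the median shift, 20 and 26 after quantile normalization). Their 4 members with the smallest adjusted p were USP38 (2.29), UBE2Q2 (1.70), USP46 (1.15) and USP31 (1.11), all higher. Sphingosine and ceramide enzymes had 8 of 18 in each direction, with the ceramide transporter CERT1 (1.62), UGCG (1.52), which makes glucosylceramide, SGPP1 (1.21), a phosphatase of sphingosine phosphate, and SPTLC1 (0.82), of the first step of sphingolipid synthesis, higher. There were 7 higher and 9 lower after the median shift and after quantile normalization, 10 and 5 after centring by gene span and 8 and 7 without control siRNA replicate 3.

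Features that the interaction does not use were then compared. The span of a gene on the genome, from its first to its last annotated base, went with the widest range of median interactions among the features compared. From the shortest to the longest quartile of 7757 genes the median interaction was -0.54, -0.34, 0.07 and 0.45. Of the shortest quartile (up to 12.7 kb) 11.8% were higher than the sum and 73.8% lower, and of the longest (from 73.0 kb) 58.6% were higher and 27.8% lower. The median single changes hardly moved over the quartiles with ETV6 siRNA (0.01 to -0.01), went from 0.08 to -0.19 with NFKB1 siRNA, and from -0.38 to 0.15 with both. These genes share the same 12 arrays, so the pattern is a description without a test. The one-sided lists also differ in span, from a median of 1.55 kb for histone genes and 9.17 kb for mitochondrial ribosomal proteins to 47.9 kb for ETS factors. The G2/M list, with a median span of 29.8 kb, stayed 0.94 above the median of all genes after centring by span.

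**Figure D5:**
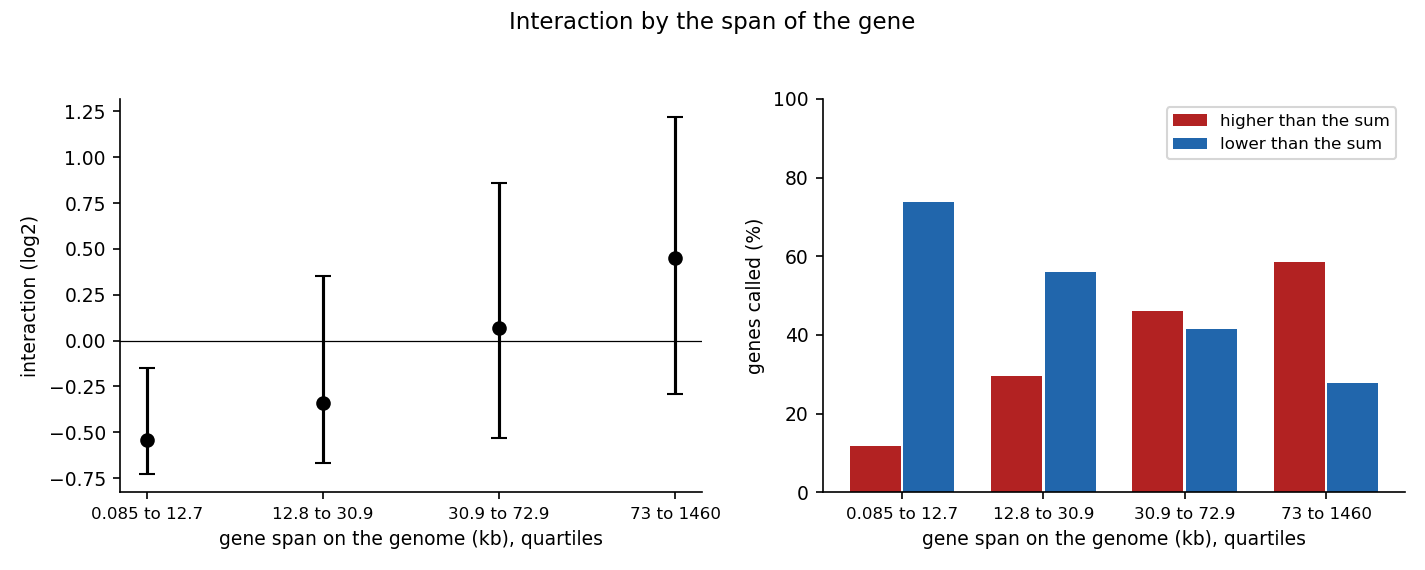
Left, median interaction on the log2 scale (points) with the 25th and 75th percentiles (bars) in the quartiles of gene span. Right, percent of genes called higher or lower than the sum in the same quartiles; the higher share grows from 11.8% to 58.6% and the lower share shrinks from 73.8% to 27.8%.

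The G+C content of the promoter moved the other way and less, with medians of -0.03, -0.16, -0.20 and -0.36 from the lowest to the highest quartile of 6576 genes. Over quartiles of the mean level they were -0.27, -0.31, -0.16 and -0.12. The ETS motif was in the promoters of 9.64% of the genes higher than the sum, 10.3% of those lower and 10.1% of those not called, beside 4.44% of all 27305 promoters in the table. The NF-kB motifs were in 0.786%, 0.581% and 1.24%, beside 0.839% of all promoters. A match is only a run of letters in this window.

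Different probe sets of a gene often gave different interactions. Taken on their own, 11051 of 12987 probe sets were called (85.1%). Of 3082 genes with at least 2 tested probe sets, 2158 had every one called in a single direction and 158 (5.13%) had probe sets called in both directions. For 338 the lowest and the highest differed by over 1 on the log2 scale, as in NUDT21, TGFB2 and SLC7A11. CD44, the hyaluronan receptor, gave 0.22 on its brightest probe set and -0.32 to -0.60 on 6 others that were tested, so that its direction rests on the choice of probe set.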

How the data were processed

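RNA of U251 cells was measured on 12 Affymetrix arrays, in 4 groups of 3 set by the sample titles. The authors deposited log2 levels of 19520 probe sets, between 3.05 and 14.75, with their normalization not given in the sources used here. Genes without one of these probe sets are outside every count and share given. Array number limits the precision. Probe sets were named through the platform annotation: 17313 named 1 gene, 857 several, 1293 none and 57 were controls. The filter dropped genes whose mean lay below the 25th percentile (log2 7.54), except the targeted genes. The interaction was fitted with limma 3.58.1 in R 4.3.3, with 1 mean for each group (8 residual degrees of freedom), two-sided, with Benjamini-Hochberg adjustment over 7760 genes and a threshold of 0.05. The fit was also run on simulated data in which most genes were additive and noise was independent between arrays. Most genes were called in the real data, so that run gives no rate of false calls for them. Members and gene lists were chosen with earlier results of these data known. Named genes were the 2 targets, the 12 highest and 12 lowest called interactions with 1 sign over 81 choices of arrays (names without annotation left out), at most 4 called members of each list in order of adjusted p, the 4 largest for each form, and any NF-kB, ETS or cytokine member. Genes near additivity and the glioma markers shown beside these were added. Alternatives covered scaling, filter, probe set choice, array weights, variance model, unlogged values, replicate block and leaving out arrays. Same-numbered arrays did not deviate together, so replicate numbers were not taken as pairs.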

Additional observations from a re-analysis of the deposited data

Results flagged for a closer look

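The log2 change with ETV6 siRNA differed with and without NFKB1 siRNA for 6698 genes by the interaction test (limma, adjusted p under 0.05). A value is the change with NFKB1 siRNA present minus the change without it. Among the 2 targets this held for ETV6 itself, at 0.81. It was most positive for PI15 (3.89), LRRC58 (3.54), BCAT1 (3.46), SPOPL (3.42), LARP4 (3.14), DMXL1 (3.12), XRN1 (3.11), PRKD3 (3.07), SLC30A7 (3.02), PANK3 (3.01), HIPK3 (3.00) and IL6ST (2.93). It was most negative for HMOX1 (-2.22), HECTD3 (-1.31), TMEM158 (-1.27), PSKH1 (-1.26), UBA1 (-1.22), PFKFB4 (-1.22), BRD3OS (-1.21), PKM (-1.21), HILPDA (-1.18), ORAI3 (-1.17), RPUSD3 (-1.17) and SLC7A5 (-1.16). These 24 were the extremes among genes with 1 sign over the 81 choices of arrays, with names without annotation left out.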

How the results depend on the processing

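The 12 highest and 12 lowest interactions kept their direction and call in all 24 alternatives. Leaving out arrays could not turn their direction, since they were chosen for 1 sign over the 81 choices of arrays. Of the 209 named genes called 188 kept both, while 32 of the 36 named genes not called were called in at least 1. The count of called genes was 4418 (1862 higher, 2556 lower, 2182 on the other side of control) with a filter at the 50th percentile, which tests fewer genes, and 11051 (5075 higher, 5976 lower; 3622 with a sum near 0, 506 beyond it, 613 short of it and 6310 on the other side) over every probe set. Genes beyond the sum numbered 857 with array weights, 139 on unlogged values, 886 with ETV6 siRNA replicate 2 and control siRNA replicate 3 both left out, and 190 to 1038 when 1 array was left out; the cause was not tested. Among called genes 42.3% were higher than the sum, against 34.2% after the median shift, 37.3% after quantile normalization and 51.3% after centring within 20 bins of gene span, an alternative chosen after seeing the data. ETV6 stayed past the threshold in every alternative. On the log2 scale it went from 0.38 after span centring to 0.99 without those 2 arrays, and on unlogged values it was 0.40 of the gene mean. NFKB1 passed the threshold at -0.74 after the median shift, -0.75 after quantile normalization and -0.80 with array weights. It also passed at -0.65 without those 2 arrays, at -1.07 after span centring and at -0.49 of the gene mean on unlogged values. When 1 array was left out its log2 interaction ranged from -0.80 to -0.35. Span centring turned the direction of ABHD2 (-0.32), CAMK2N1 (0.36), CCL2 (0.19), CCN2 (0.37), CD44 (-0.32), CITED1 (0.38), COX3 (0.49), CXCL8 (0.53), GFAP (0.27), PLAU (0.02), RPL18 (0.19), RPL36 (0.19), S100B (0.46) and TRAF6 (0.05), and the mean of probe sets turned CD44 (-0.09) and LAMA4 (-0.04). The cause was not tested. Same-numbered arrays had deviations that correlated between -0.52 and 0.48, 3 of the 12 arrays correlated best with their own number, and with a replicate block 6682 genes were called.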
